A study of Mus musculus with 10 samples.

Results

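The 44 genes described here drive cells through DNA replication and mitosis, and their RNA was measured in the lungs of mice with and without ovalbumin-induced asthma. The set was a fixed list of symbols of textbook cell cycle genes. All 44 were found among the 24394 gene symbols of the deposited table, where the rows of a symbol were summed. A total of 13 are DNA replication genes (Mcm2 to Mcm7, Pcna, Rrm1, Rrm2, Tyms, Cdc6, Cdt1 and Gins2), 28 are mitosis genes, and 3 are regulators (E2f1, Foxm1 and Melk). The RNA-seq libraries came from the lungs of BALB/c mice, all female and aged 8 weeks. Saline mice (n = 3) were the controls, and OVA mice (n = 3) were sensitized with the egg protein ovalbumin on days 0 and 7 and challenged with it through the nose for 4 days from day 12. Herb mice (n = 4) went through the same ovalbumin protocol and were given an ethanol extract of Descurainia sophia seeds (DSE in the study) by mouth at 200 mg/kg from day 9 to day 15. All mice were of 1 inbred strain, and the labels do not say whether a library came from 1 animal, so the p-values measure the spread between these libraries.

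Before a cell divides it copies its genome once. Cdc6 and Cdt1 load the ring of Mcm2 to Mcm7 proteins onto replication origins, and Gins2 belongs to a complex that turns the ring into an active helicase. Pcna is the sliding clamp that holds the DNA polymerases on the template, and Rrm1, Rrm2 and Tyms make the deoxynucleotides. The mitosis genes act later, when cyclin B with Cdk1 starts chromosome condensation, kinesin motors and spindle proteins build the spindle, the Bub1 and Ndc80 proteins watch and make the attachment of chromosomes, and Cdc20 and Ube2c mark cyclin B for destruction. E2f1 is a transcription factor best known for turning on replication genes, whereas Foxm1 drives many mitosis genes. In healthy adult lung few cells divide.

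Short promoter elements known from cell cycle genes were searched in the promoters of both classes. The CHR core (letters TTTGAA or, on the other strand, TTCAAA) and the CCAAT box (CCAAT or ATTGG, bound by NF-Y) are known from late cell cycle genes, and E2F elements were searched as TTGGCGC, as TTCGCGC and as TTCCCGC on both strands. RefSeq promoters of GRCm38.p6, from 250 bases before to 50 bases after the start, were found for 37 of the 44 genes, and Mcm4, Gins2, Ccna2, Aurkb, Kif20a, Tpx2 and Foxm1 had no entry. A CHR core was present in 18 of 24 mitosis genes (75%) and in 1 of 11 replication genes (9.09%, Mcm2), against 20.2% of 27025 genes with a promoter. E2F letters were present in 7 of 11 replication genes (63.6%), in 4 of 24 mitosis genes (16.7%) and in 9.203% of all genes. The CCAAT box was present in 20 of 24 mitosis genes (83.3%), in 8 of 11 replication genes (72.7%) and in 41.1% of all genes, and 17 mitosis genes (70.8%) held it together with a CHR core, against 7.97% of all genes. CCAAT and E2F letters overlapped at 3 places in these promoters. A match is a description of the letters and not a measured binding site. No match was found in E2f1 and Melk.

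**Figure D1:**
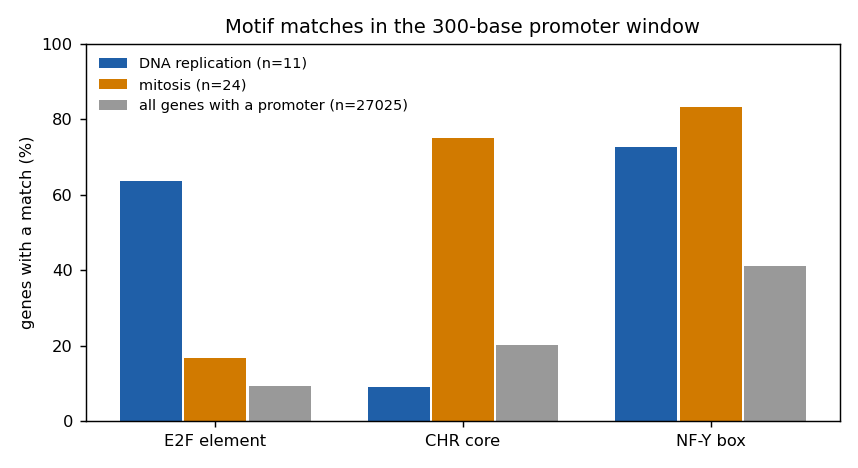
Share of genes (%) whose 300-base promoter window holds an E2F element, a CHR core or the CCAAT box bound by NF-Y, for 11 DNA replication genes, 24 mitosis genes and all 27025 genes with a promoter. The CHR core was found in 75% of the mitosis genes and 9.09% of the replication genes, and E2F letters in 16.7% and 63.6%.

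The 120 bases before the start are shown for 4 mitosis genes with both a CHR core and a CCAAT box and for 3 replication genes, Mcm6 as an example with E2F letters and Rrm1 and Pcna because they fell in OVA as deposited, all 5′ to 3′ in the direction of the gene, with every searched element in capitals.
Cdk1 (chr10:69352913-69353032, minus strand): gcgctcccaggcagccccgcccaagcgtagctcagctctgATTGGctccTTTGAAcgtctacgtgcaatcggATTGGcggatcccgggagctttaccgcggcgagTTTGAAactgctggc
Cdc20 (chr4:118437344-118437463, minus strand): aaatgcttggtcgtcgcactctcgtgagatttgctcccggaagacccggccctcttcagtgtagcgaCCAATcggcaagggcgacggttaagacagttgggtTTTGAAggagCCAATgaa
Ube2c (chr2:164769809-164769928, plus strand): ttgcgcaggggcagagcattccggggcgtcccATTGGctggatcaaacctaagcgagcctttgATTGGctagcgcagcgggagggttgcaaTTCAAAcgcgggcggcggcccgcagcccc
Kif11 (chr19:37376262-37376381, plus strand): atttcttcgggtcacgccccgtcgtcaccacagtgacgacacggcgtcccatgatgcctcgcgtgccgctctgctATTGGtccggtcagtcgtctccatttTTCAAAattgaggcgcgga
Mcm6 (chr1:128359706-128359825, minus strand): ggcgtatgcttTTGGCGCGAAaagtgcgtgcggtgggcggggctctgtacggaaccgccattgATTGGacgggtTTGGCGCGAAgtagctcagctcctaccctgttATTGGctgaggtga
Rrm1 (chr7:102441575-102441694, plus strand): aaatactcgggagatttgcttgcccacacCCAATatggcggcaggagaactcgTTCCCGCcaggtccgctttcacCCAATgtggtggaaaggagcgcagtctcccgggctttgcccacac
Pcna (chr2:132253181-132253300, minus strand): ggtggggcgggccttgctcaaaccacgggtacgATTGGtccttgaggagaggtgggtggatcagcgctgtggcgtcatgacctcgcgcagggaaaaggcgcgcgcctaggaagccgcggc
The first base of the CHR core nearest to the start lay at position -15 in Cdk1, -18 in Cdc20, -19 in Kif11 and -29 in Ube2c, counted from -1 at the base before the start. Mcm6 held overlapping pairs of E2F letters from -109 and from -46, and Rrm1 held 1 from -67. The Pcna window held a CCAAT box from -87 and none of the E2F letters searched.

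Levels are given in FPKM, fragments counted relative to transcript length and to the mapped fragments of the library. Estimated depth was 14900000 to 21500000 fragments in Saline, 20200000 to 29500000 in OVA and 14800000 to 21400000 in Herb. The estimate is rough, and so are fragment numbers drawn from it. At these depths only 46.5% (Herb 3) to 53.9% (Saline 1) of low values lay within 0.1 of a whole number of fragments. The share of fragments on messenger RNA was estimated from FPKM and transcript length, over messenger RNA rows with a gene symbol and a known length. The 31605 of 66548 rows without a symbol were left out, so it is not a measured messenger RNA content. The estimated share was 33.0% to 33.3% in Saline, 11.9% to 14.9% in OVA and 19.3% to 25.8% in Herb. Rn45s, the ribosomal RNA precursor, ran from 1201 to 1386 FPKM, from 10014 to 13531 FPKM and from 3230 to 7019 FPKM in the same order. As deposited, the median log2 fold change of all 16075 genes tested was -0.46 in OVA vs. Saline, 0.33 in Herb vs. OVA and -0.13 in Herb vs. Saline. With each library rescaled to a common 75th percentile of the gene sums it was 0.07, 0.00 and 0.07. Values are as deposited unless they are said to be rescaled. A call is an adjusted p under 0.05 from limma over the 16075 genes whose mean reached 0.1 FPKM, and fold changes are of FPKM + 1, which understates the change of low genes. Lung identity genes such as Sftpc and Scgb1a1 were abundant in every library, with a summed level of 17853 to 27604, 3149 to 5735 and 8983 to 14279 FPKM in Saline, OVA and Herb. After rescaling it was 12772 to 20028, 5350 to 8400 and 9566 to 12149. Most of the sum was Scgb1a1, at 12768 to 22628 FPKM in Saline and 2471 to 5164 FPKM in OVA as deposited. Foxj1 of the same list was higher in OVA as deposited, at 2.72 to 6.66 FPKM in Saline and 7.94 to 21.4 FPKM in OVA. The other listed genes had lower values in OVA.

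The 44 genes were low. Their means over the 10 libraries ran from 0.304 FPKM (Cdc6) to 9.56 FPKM (Pcna), 24 reached a mean of 1 FPKM, and all 44 passed the filter for testing. A total of 41 were above 3 estimated fragments in every library. Mcm7, a subunit of the helicase ring, was listed at 0 in 5 libraries (Saline 1, OVA 1 and 2, Herb 2 and 3) and at 3.80 to 5.29 FPKM in the other 5, and the housekeeping gene Gapdh was listed at 0 in 9 of the 10 libraries, so a value of 0 can be a failed estimate. Melk was listed at 0 in Saline 1, and Ndc80 was at 0.0410 FPKM, under 3 fragments, in Saline 2. Named pseudogene copies exist for Pcna, Tyms, Ccnb1, Ccnb2 and Kif4, so reads of these 5 genes may have been split with the copies.

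The comparison of OVA with Saline shows how these genes differed between the asthma model and the controls. The estimated share of fragments on messenger RNA differed between the same groups, so its part and that of the model cannot be told apart. As deposited, Pcna, Mcm4, Rrm1 and the spindle protein gene Nusap1 fell, whereas the centromere motor gene Cenpe, the cytokinesis genes Kif23 and Prc1, Foxm1 and 6 other genes rose. After rescaling, 23 of the 28 mitosis genes rose, while Pcna and Mcm4 were still lower. In whole lung, a change in the number of dividing cells and a change in RNA per cell cannot be told apart.

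As deposited, 10 of the 44 genes were called higher (22.7%) against a background of 3.48% of all genes, and 4 were called lower (9.09%) against 45.1%. The genes called higher were Cenpe, Kif23, Cdca8, Cenpf, Prc1, Plk1 and Tpx2 of the mitosis genes, Cdc6 of the replication genes, and Foxm1 and Melk. After rescaling, 29 were called higher (65.9%) against 20% of all genes, and 2 lower (4.55%) against 14.6%. By class, 23 of 28 mitosis genes (82.1%), 3 of 13 replication genes (23.1%) and all 3 regulators were called higher on the rescaled values. The 3 replication genes were Cdc6, Cdt1 and Mcm5, a share close to the 20% of all genes. The 2 replication genes called lower, Pcna and Mcm4 (15.4%), were close to the 14.6% of all genes. The median log2 fold change was -0.11 for replication and 0.30 for mitosis genes as deposited, and 0.34 and 0.72 after rescaling.

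Pcna, at chr2:132249286-132253180 of GRCm38.p6, was the most abundant of the 44 genes. It was measured at 16.9, 20.7 and 15.4 FPKM in Saline, 2.62, 4.33 and 5.90 FPKM in OVA and 7.502, 8.82, 6.29 and 7.08 FPKM in Herb. Every OVA library lay below every Saline library, and the Herb libraries lay between them (log2 fold change -1.86, SE 0.23, limma BH-adjusted p = 0.000278). After rescaling the fall was smaller but still called (log2 fold change -0.93, SE 0.20, limma BH-adjusted p = 0.00758).

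Mcm4, another subunit of the ring (chr16:15623897-15637400), was measured at 4.35, 5.51 and 4.73 FPKM in Saline, 1.15, 1.34 and 1.32 FPKM in OVA and 2.68, 2.42, 1.90 and 2.56 FPKM in Herb. The 3 groups did not overlap. It fell on both scales, with log2 fold change -1.37, SE 0.13, limma BH-adjusted p = 0.000204 as deposited and log2 fold change -0.63, SE 0.11, limma BH-adjusted p = 0.00410 after rescaling. Rrm1, the large subunit of ribonucleotide reductase (chr7:102441695-102469771), was measured at 6.07, 6.90 and 5.59 FPKM in Saline, 1.83, 2.75 and 2.79 FPKM in OVA and 4.24, 4.60, 3.84 and 4.70 FPKM in Herb and fell as deposited (log2 fold change -1.07, SE 0.15, limma BH-adjusted p = 0.000428). Its rescaled difference was not called (log2 fold change -0.23, SE 0.12, limma BH-adjusted p = 0.165).

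None of the other replication genes was called lower on either scale. Rrm2, the small subunit of the same enzyme, was measured at 0.775, 0.866 and 0.925 FPKM in Saline, 0.435, 1.55 and 1.54 FPKM in OVA and 0.453, 0.975, 0.347 and 2.41 FPKM in Herb, with overlapping groups. Mcm2 had log2 fold change -0.18, SE 0.20, limma BH-adjusted p = 0.504 as deposited and log2 fold change 0.43, SE 0.20, limma BH-adjusted p = 0.129 after rescaling, so its sign depended on the scale and neither value was called. Mcm6, measured at 1.91, 1.36 and 1.42 FPKM in Saline, 0.835, 1.58 and 1.80 FPKM in OVA and 2.53, 1.93, 1.75 and 2.77 FPKM in Herb, was close to the threshold after rescaling (log2 fold change 0.52, SE 0.18, limma BH-adjusted p = 0.0558). Mcm3, Tyms and Gins2 were called on neither scale.

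Cdc6, which loads the ring, rose on both scales. It was measured at 0.0726, 0.0976 and 0.0736 FPKM in Saline, 0.232, 0.471 and 0.614 FPKM in OVA and 0.326, 0.160, 0.504 and 0.487 FPKM in Herb, and all OVA and Herb libraries lay above all Saline libraries. The values were log2 fold change 0.40, SE 0.12, limma BH-adjusted p = 0.0236 as deposited and log2 fold change 0.62, SE 0.14, limma BH-adjusted p = 0.00893 after rescaling. With the transcript row of the highest mean in place of the gene sum, its deposited log2 fold change was 0.11 (limma BH-adjusted p = 0.652) and not called. Its partner Cdt1 was called only after rescaling (log2 fold change 0.58, SE 0.19, limma BH-adjusted p = 0.0377), as was Mcm5 (log2 fold change 0.55, SE 0.18, limma BH-adjusted p = 0.0453).

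**Figure D2:**
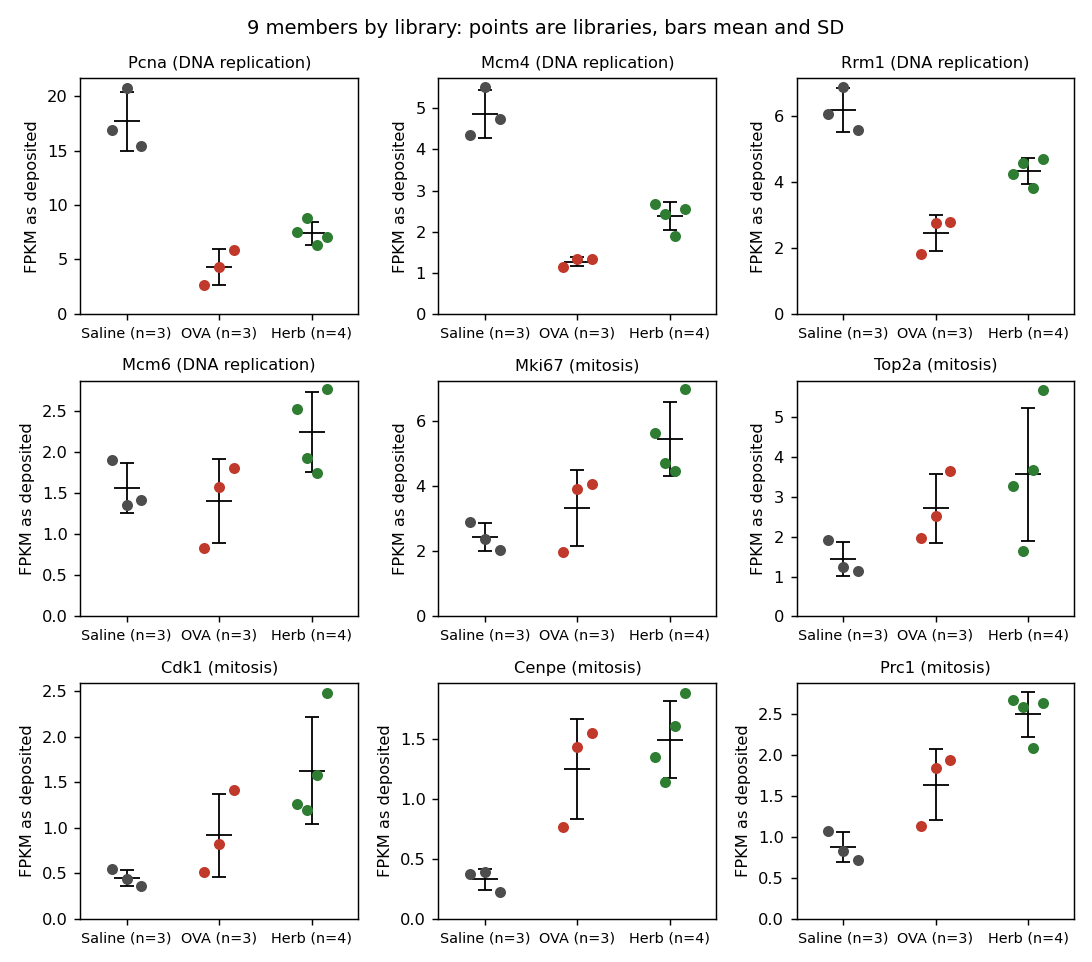
FPKM as deposited of 4 DNA replication and 5 mitosis genes in each library of Saline (n = 3), OVA (n = 3) and Herb (n = 4), with each library as a point and bars for the mean and SD. Pcna, Mcm4 and Rrm1 were highest in Saline and lowest in OVA, while Cenpe and Prc1 were lowest in Saline.

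Among the mitosis genes, Cenpe had the largest change called as deposited. This kinesin, which moves chromosomes to the spindle equator (chr3:135212563-135273540), was measured at 0.374, 0.389 and 0.226 FPKM in Saline, 0.771, 1.44 and 1.55 FPKM in OVA and 1.35, 1.14, 1.61 and 1.88 FPKM in Herb. Every OVA library was above every Saline library, with log2 fold change 0.74, SE 0.17, limma BH-adjusted p = 0.00505 as deposited and log2 fold change 1.19, SE 0.18, limma BH-adjusted p = 0.00201 after rescaling. Kif23, the motor of the central spindle, was measured at 1.11, 0.897 and 1.29 FPKM in Saline, 1.72, 1.956 and 1.68 FPKM in OVA and 2.77, 2.55, 2.42 and 2.46 FPKM in Herb. It rose on both scales (log2 fold change 0.41, SE 0.11, limma BH-adjusted p = 0.0149 as deposited), and it had the lowest adjusted p of the 44 genes after rescaling (log2 fold change 1.04, SE 0.11, limma BH-adjusted p = 0.00113).

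Prc1, which bundles the microtubules that Kif23 works on, was measured at 1.08, 0.831 and 0.714 FPKM in Saline, 1.14, 1.84 and 1.94 FPKM in OVA and 2.67, 2.59, 2.09 and 2.64 FPKM in Herb. The groups Saline and OVA did not overlap (log2 fold change 0.49, SE 0.15, limma BH-adjusted p = 0.0267 as deposited and log2 fold change 1.07, SE 0.13, limma BH-adjusted p = 0.00129 after rescaling). With its highest row alone the deposited value was 0.46 (limma BH-adjusted p = 0.325). Cdca8 and Aurkb, subunits of the chromosomal passenger complex that corrects wrong attachments, had rescaled log2 fold changes of 1.04 and 0.84, both called, and so was their partner Birc5 at 0.88 (SE 0.18 to 0.21 and limma BH-adjusted p = 0.00440 to 0.0126).

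Mki67, the standard marker of dividing cells, was measured at 2.90, 2.38 and 2.04 FPKM in Saline, 1.97, 3.92 and 4.07 FPKM in OVA and 5.62, 4.71, 4.45 and 6.97 FPKM in Herb. As deposited OVA 1 lay below all Saline libraries and the difference was not called (log2 fold change 0.30, SE 0.23, limma BH-adjusted p = 0.325). After rescaling all 3 OVA libraries were above Saline and the gene rose (log2 fold change 1.07, SE 0.21, limma BH-adjusted p = 0.00569). Top2a, which untangles the copied chromosomes, was measured at 1.92, 1.23 and 1.14 FPKM in Saline, 1.97, 2.53 and 3.66 FPKM in OVA and 3.27, 1.64, 3.67 and 5.68 FPKM in Herb. It showed the same split between the scales, with log2 fold change 0.60, SE 0.32, limma BH-adjusted p = 0.149 as deposited and log2 fold change 1.30, SE 0.33, limma BH-adjusted p = 0.0164 after rescaling.

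Cdk1, the kinase that starts mitosis, was measured at 0.543, 0.432 and 0.364 FPKM in Saline, 0.515, 0.823 and 1.41 FPKM in OVA and 1.26, 1.19, 1.58 and 2.48 FPKM in Herb. Its difference was called after rescaling (log2 fold change 0.80, SE 0.23, limma BH-adjusted p = 0.0266) and not as deposited (log2 fold change 0.38, SE 0.21, limma BH-adjusted p = 0.170). Ccnb1, the cyclin that activates it, was measured at 0.407, 0.215 and 0.286 FPKM in Saline, 0.186, 0.942 and 0.788 FPKM in OVA and 1.14, 0.982, 1.04 and 1.53 FPKM in Herb and rose after rescaling (log2 fold change 0.62, SE 0.20, limma BH-adjusted p = 0.0438), with log2 fold change 0.30, SE 0.18, limma BH-adjusted p = 0.207 as deposited. The 5 mitosis genes not called after rescaling were Ccna2, Ccnb2, Cdc20, Ube2c and Nusap1, with log2 fold changes of 0.35, 0.63, 0.86, 0.30 and -0.088.

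Of the remaining mitosis genes called higher after rescaling, the rescaled log2 fold changes were 1.03 for the checkpoint kinase gene Bub1b, 0.96 for the mitotic kinase gene Plk1, 0.87 for the spindle assembly factor Tpx2 and 0.85 for the kinetochore gene Cenpf. The values were 0.64 for Hmmr, 0.62 for Cdca3, 0.59 for Kif20a, 0.58 for Kif4, 0.58 for Aurka, 0.57 for Kif11, 0.56 for Ndc80, 0.47 for Nuf2 and 0.32 for Bub1. For these 13 genes the values had SE 0.094 to 0.19 and limma BH-adjusted p = 0.00183 to 0.0344. With its highest row alone Tpx2 had a deposited value of 0.16 (limma BH-adjusted p = 0.555). Ndc80 and Nuf2 are partners in the complex that holds microtubules at the kinetochore.

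Of the regulators, Foxm1 and Melk were called on both scales. Foxm1 was measured at 0.633, 0.473 and 0.438 FPKM in Saline, 0.773, 1.19 and 1.01 FPKM in OVA and 1.42, 1.15, 1.20 and 1.46 FPKM in Herb, and the OVA libraries lay above all Saline libraries on the deposited values (log2 fold change 0.39, SE 0.12, limma BH-adjusted p = 0.0199) and after rescaling (log2 fold change 0.85, SE 0.11, limma BH-adjusted p = 0.00142). Melk, a kinase of dividing cells, was measured at 0, 0.0869 and 0.0334 FPKM in Saline, 0.201, 0.351 and 0.776 FPKM in OVA and 0.429, 0.273, 0.440 and 0.755 FPKM in Herb and rose as deposited (log2 fold change 0.45, SE 0.15, limma BH-adjusted p = 0.0364) and after rescaling (log2 fold change 0.65, SE 0.18, limma BH-adjusted p = 0.0206). E2f1, measured at 0.905, 0.686 and 0.795 FPKM in Saline, 0.508, 0.945 and 0.949 FPKM in OVA and 1.25, 0.706, 0.977 and 1.06 FPKM in Herb, was called higher after rescaling (log2 fold change 0.47, SE 0.14, limma BH-adjusted p = 0.0307) but not as deposited (log2 fold change -0.004, SE 0.14, limma BH-adjusted p = 0.986).

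These counts depended on single libraries. As deposited, the number called higher was 4 without Saline 2, 2 without Saline 3, 17 without OVA 1, 2 without OVA 2 and 4 without OVA 3, and Cenpe, Mcm4, Pcna and Rrm1 were called each time a library was left out. After rescaling it was 17 without Saline 2 or without Saline 3 and 18 without OVA 3, and 19 of the 31 genes kept their call in all 10 such fits, among them Cenpe, Kif23, Prc1, Foxm1, Mki67, Plk1, Pcna and Mcm4.

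Mitosis and replication genes can also be set against each other within a library, where the scaling cancels. The ratio of the geometric mean FPKM of the 28 mitosis genes to that of the 12 replication genes above 0 in every library was 0.443, 0.311 and 0.329 in Saline, 0.821, 0.828 and 0.700 in OVA and 0.997, 0.834, 0.934 and 0.913 in Herb. All OVA and Herb ratios lay above all Saline ratios, and the lowest Herb ratio was just above the highest OVA ratio. The means were 0.361 ± 0.0715 (SD, n = 3), 0.783 ± 0.0721 (SD, n = 3) and 0.920 ± 0.0671 (SD, n = 4). Without Pcna, Mcm4 and Rrm1 the ratio was 0.570 to 0.774 in Saline, 0.854 to 1.13 in OVA and 1.22 to 1.46 in Herb. With summed FPKM in place of the geometric mean it was 0.368 to 0.578, 1.34 to 1.81 and 1.45 to 1.84, and OVA and Herb then overlapped. These sums were over all 13 replication genes. They include Mcm7, whose values of 0 in Saline 1, OVA 1 and 2 and Herb 2 and 3 raise the ratio there. No test was made of this score.

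**Figure D3:**
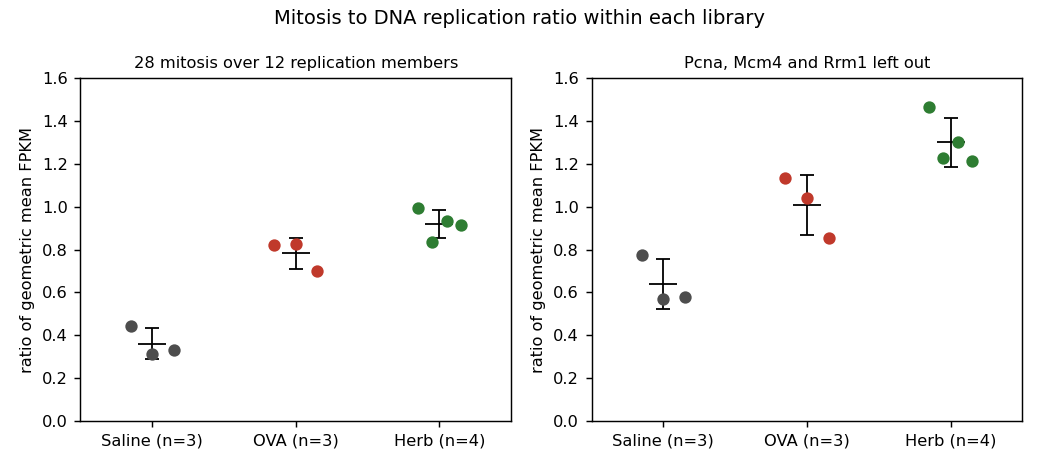
Ratio of the geometric mean FPKM of mitosis to DNA replication genes within each library (points), with mean and SD, for 28 mitosis and 12 replication genes on the left and without Pcna, Mcm4 and Rrm1 on the right. Saline libraries lay at 0.311 to 0.443, OVA at 0.700 to 0.828 and Herb at 0.834 to 0.997 on the left.

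As a share of the estimated messenger RNA fragments, mitosis genes took 0.0199% to 0.0279% in Saline, 0.0685% to 0.116% in OVA and 0.0626% to 0.111% in Herb. Replication genes took 0.0290% to 0.0368%, 0.0256% to 0.0551% and 0.0271% to 0.0447% in the same order, so their groups overlapped. Summed levels of the markers of other cells follow in the order Saline, OVA and Herb. The 8 of 9 listed erythroid genes found, among them the globin genes Hba-a2 and Hbb-bs, summed to 5740 to 6976, 32.8 to 562 and 1078 to 1588 FPKM as deposited and 4165 to 4978, 48.1 to 765 and 1041 to 1351 after rescaling. The 6 endothelial genes summed to 341 to 418, 65.2 to 117 and 142 to 283 FPKM and, rescaled, 247 to 299, 95.4 to 159 and 137 to 241, where OVA and Herb overlapped. The 7 of 8 T cell genes found summed to 9.02 to 15.9, 2.87 to 6.95 and 6.20 to 13.0 FPKM, but after rescaling to 6.55 to 11.3, 4.88 to 10.2 and 6.49 to 12.5, so that all 3 groups overlapped. The 7 B and plasma cell genes summed to 31.4 to 75.6, 8.87 to 13.9 and 17.6 to 35.5 FPKM and, rescaled, 22.5 to 54.0, 15.1 to 20.4 and 16.4 to 34.3.

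The 8 macrophage genes summed to 107 to 215, 721 to 4340 and 1509 to 4291 FPKM and, rescaled, 76.7 to 156, 1225 to 6358 and 1284 to 4431. Most of the higher sum in OVA was Retnla, at 0 to 5.61 FPKM in Saline and 630 to 4155 FPKM in OVA, and the listed genes did not share 1 direction. Cd68 was lower, at 6.68 to 13.0 FPKM in Saline and 1.49 to 3.91 FPKM in OVA, and Adgre1 was at 3.52 to 4.33 and 1.74 to 3.84 FPKM. Csf1r was already near 0 in Saline, at 0.0873 to 0.158 FPKM, and was listed at 0 in every library of OVA and Herb. The 8 of 9 eosinophil and neutrophil genes found summed to 53.6 to 490, 11.6 to 40.3 and 44.3 to 129 FPKM and, rescaled, 38.3 to 355, 19.6 to 59.0 and 41.9 to 109. Much of the sum in Saline came from the neutrophil genes S100a9, at 0 to 416 FPKM in Saline and 0 to 0.952 FPKM in OVA, and S100a8, at 7.61 to 53.1 and 1.499 to 3.27 FPKM. The eosinophil genes Prg2 and Ccr3 had higher values in OVA, with Prg2 listed at 0 in all Saline libraries and at 0.876 to 1.65 FPKM in OVA and Ccr3 at 0.0409 to 0.103 and 0.105 to 0.303 FPKM, while Epx was at or near 0 in every library. Siglecf and Ear2 of the same list had lower values in OVA. Siglecf was at 2.97 to 4.43 FPKM in Saline and 0.571 to 1.20 FPKM in OVA. Ear2 was at 8.50 to 17.6 and 0.655 to 3.16 FPKM in the same groups. The values of single genes in this paragraph are as deposited, where 45.1% of all genes were called lower in OVA vs. Saline. The part of these cells in the results was not tested.

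The comparison of Herb with OVA shows how these genes differed between mice given the extract and mice with the ovalbumin protocol alone. The estimated share of fragments on messenger RNA differed between these groups, so its part and that of the extract cannot be told apart. As deposited, Pcna, Mcm4, Rrm1, Nusap1, Ube2c, Ccna2, Aurka, Kif23 and Cenpf rose, and none of the 44 genes was called lower. After rescaling none of the 44 was called in either direction. This comparison shares its OVA libraries with OVA vs. Saline.

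As deposited, 9 of 44 genes were called higher (20.5%), fewer than the background of 30.3% of all genes, and 0 were called lower by limma, against 0.392%, with 0 also lower at an unadjusted p under 0.05. After rescaling, 0 were called higher and 0 lower, against 0.174% of all genes in each direction, with 1 higher (Nusap1) and 0 lower at an unadjusted p under 0.05. The median log2 fold change as deposited was 0.26 for replication and 0.34 for mitosis genes, beside 0.33 for all genes. After rescaling it was -0.04 and 0.02, beside 0.00. With only OVA and Herb in the fit 4 genes were called higher as deposited, and the calls of Pcna, Ube2c, Ccna2, Aurka and Kif23 were lost.

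Among the replication genes, Pcna had log2 fold change 0.71, SE 0.22, limma BH-adjusted p = 0.0353 as deposited and log2 fold change 0.16, SE 0.18, limma BH-adjusted p = 0.637 after rescaling. Mcm4 had log2 fold change 0.57, SE 0.12, limma BH-adjusted p = 0.0121 as deposited, and after rescaling log2 fold change 0.16, SE 0.11, limma BH-adjusted p = 0.398. For Rrm1 the values were log2 fold change 0.64, SE 0.14, limma BH-adjusted p = 0.0121 as deposited and log2 fold change 0.14, SE 0.11, limma BH-adjusted p = 0.483 after rescaling. All Herb libraries of these 3 genes lay above all OVA libraries on the deposited scale. Mcm2 had log2 fold change -0.002, SE 0.19, limma BH-adjusted p = 0.996 as deposited and log2 fold change -0.38, SE 0.19, limma BH-adjusted p = 0.264 after rescaling.

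Ube2c, the enzyme that puts ubiquitin on cyclins, was measured at 0.992, 0.847 and 0.866 FPKM in Saline, 0.347, 0.827 and 0.996 FPKM in OVA and 1.97, 1.86, 1.02 and 2.05 FPKM in Herb, and it had log2 fold change 0.66, SE 0.18, limma BH-adjusted p = 0.0250. All Herb libraries were above all OVA libraries. After rescaling the difference was not called (log2 fold change 0.35, SE 0.17, limma BH-adjusted p = 0.251). Nusap1, a spindle microtubule binder, was measured at 1.37, 1.11 and 0.781 FPKM in Saline, 0.264, 0.684 and 0.448 FPKM in OVA and 1.39, 1.07, 1.04 and 1.26 FPKM in Herb. It fell in OVA (log2 fold change -0.51, SE 0.15, limma BH-adjusted p = 0.0171) and was higher again in Herb (log2 fold change 0.59, SE 0.14, limma BH-adjusted p = 0.0148), both as deposited. On the rescaled values it had log2 fold change 0.35, SE 0.13, limma BH-adjusted p = 0.158 in Herb vs. OVA, the gene below an unadjusted p of 0.05.

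Ccna2, the cyclin of replication and early mitosis, was measured at 1.66, 1.58 and 1.07 FPKM in Saline, 0.760, 1.45 and 1.02 FPKM in OVA and 2.45, 2.12, 1.36 and 2.11 FPKM in Herb, with log2 fold change 0.54, SE 0.17, limma BH-adjusted p = 0.0440 as deposited. The log2 fold changes as deposited of the others called were 0.42 for Aurka, 0.35 for Kif23 and 0.45 for Cenpf, and after rescaling they were 0.10, -0.11 and 0.10. The deposited values had SE 0.11 to 0.14 and limma BH-adjusted p = 0.0197 to 0.0452. The sign of Kif23 changed with the scale.

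Of the best known markers, Mki67 had log2 fold change 0.60, SE 0.22, limma BH-adjusted p = 0.0637 as deposited and log2 fold change 0.074, SE 0.20, limma BH-adjusted p = 0.856 after rescaling. Top2a had log2 fold change 0.25, SE 0.30, limma BH-adjusted p = 0.554 and log2 fold change -0.25, SE 0.31, limma BH-adjusted p = 0.662 on the same scales. Cdk1 had log2 fold change 0.46, SE 0.20, limma BH-adjusted p = 0.109 as deposited, and log2 fold change 0.12, SE 0.22, limma BH-adjusted p = 0.769 after rescaling. Ccnb1 had log2 fold change 0.43, SE 0.17, limma BH-adjusted p = 0.0846 as deposited, and log2 fold change 0.17, SE 0.19, limma BH-adjusted p = 0.616 after rescaling. None of these 4 was called.

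The regulators were not called either. As deposited, the values were log2 fold change 0.15, SE 0.13, limma BH-adjusted p = 0.405 for E2f1, log2 fold change 0.22, SE 0.11, limma BH-adjusted p = 0.159 for Foxm1 and log2 fold change 0.041, SE 0.14, limma BH-adjusted p = 0.850 for Melk. After rescaling all 3 had negative values, at -0.16, -0.14 and -0.16. As deposited, the number of the 44 genes called higher was 5 without Saline 1, 2 without OVA 1, 3 without Herb 1 and 4 without Herb 2 or without Herb 4, and Mcm4 and Rrm1 kept their call in every such fit.

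**Figure D4:**
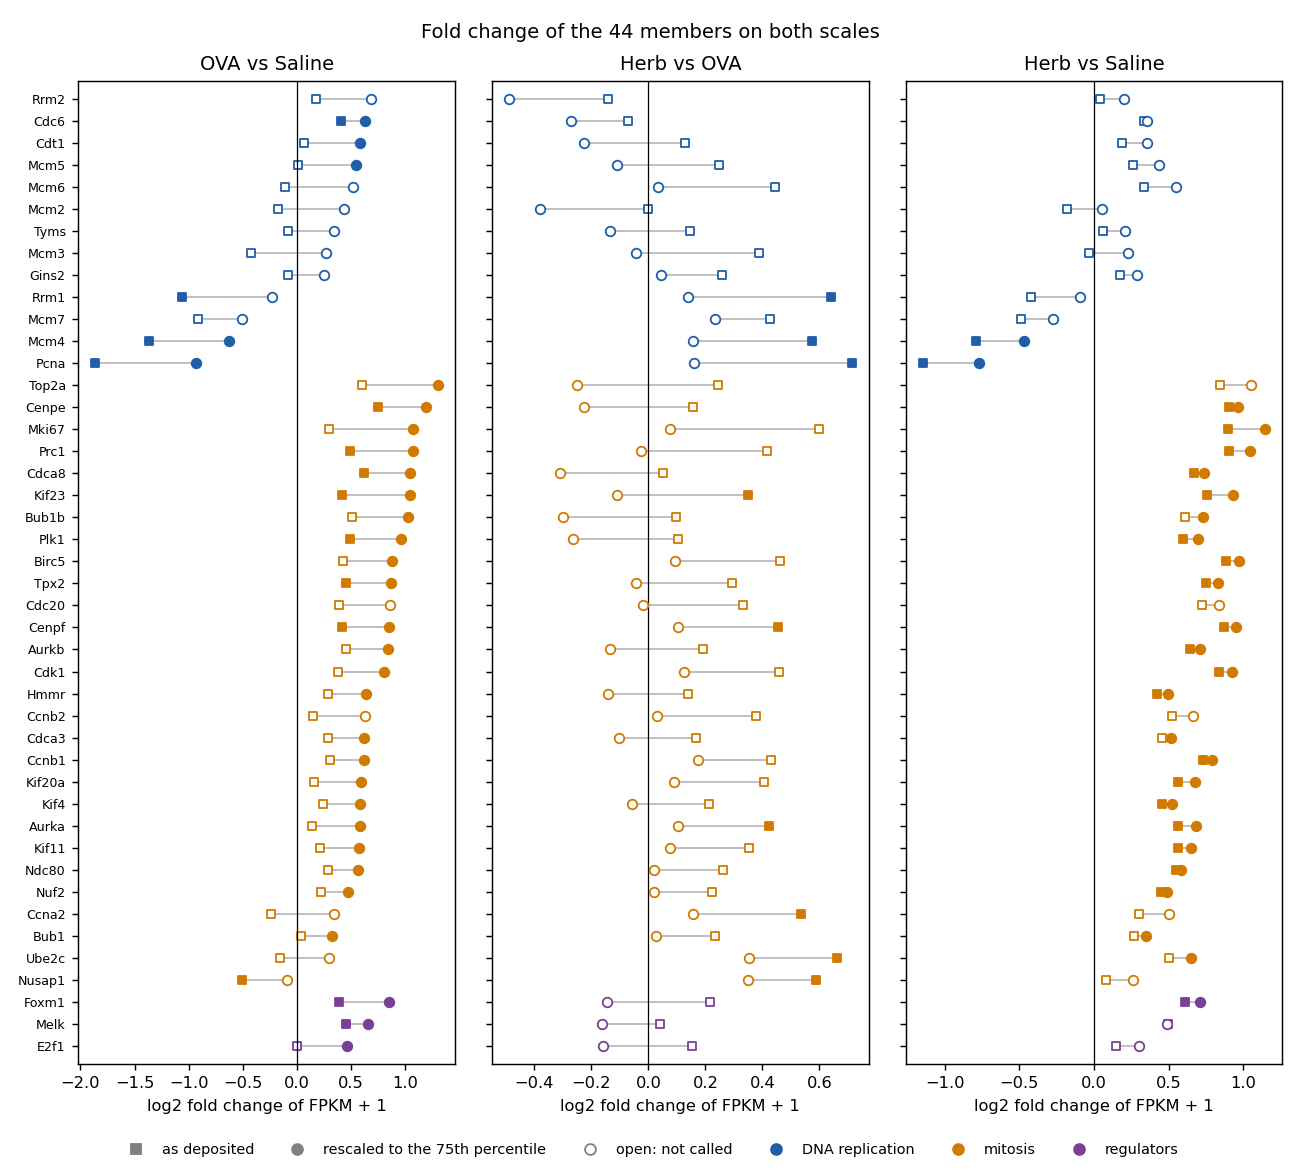
Log2 fold change of FPKM + 1 of the 44 genes in the 3 comparisons, as deposited (squares) and rescaled to the 75th percentile (circles), with filled symbols for calls. In OVA vs. Saline and Herb vs. Saline nearly all mitosis genes lay right of 0 on both scales, and in Herb vs. OVA no circle was filled.

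Setting Herb against Saline shows which of these genes were away from the control level in mice given the extract. As deposited 19 of the 28 mitosis genes rose, with Cenpf, Kif23, Prc1 and Cenpe at the lowest adjusted p, and the regulator Foxm1 rose too. None of the replication genes was called higher on either scale, and Pcna and Mcm4 were called lower on both. These 2 genes were 4.55% of the 44. That share was below the 15.2% of all genes called lower as deposited and close to the 4.12% after rescaling. This comparison shares its Saline libraries with OVA vs. Saline. The estimated share of fragments on messenger RNA differed between Herb and Saline too.

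As deposited, 21 of 44 genes were called higher (47.7%) against 3.12% of all genes, and 2 lower (4.55%) against 15.2%. The 21 were 19 of 28 mitosis genes, Foxm1 and Melk. After rescaling, 24 were called higher (54.5%) against 5.54% of all genes, and 2 lower (4.55%) against 4.12%. Here 23 of 28 mitosis genes, 0 of 13 replication genes and 1 of 3 regulators were higher, with 3 replication genes higher at an unadjusted p under 0.05. Median log2 fold changes were 0.04 for replication and 0.60 for mitosis genes as deposited, and 0.21 and 0.70 after rescaling.

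Kif23 and Prc1 were called on both scales and in every fit that left out a library. Kif23 had log2 fold change 0.76, SE 0.11, limma BH-adjusted p = 0.00820 as deposited, and Prc1 had log2 fold change 0.90, SE 0.14, limma BH-adjusted p = 0.0101. After rescaling they were at 0.93 and 1.05. With its highest row alone Prc1 had a deposited value of 0.49 (limma BH-adjusted p = 0.335), which was not called. Cenpf was measured at 0.578, 0.352 and 0.366 FPKM in Saline, 0.671, 1.11 and 0.979 FPKM in OVA and 1.80, 1.38, 1.63 and 1.68 FPKM in Herb, and all Herb libraries lay above all OVA and Saline libraries (log2 fold change 0.87, SE 0.12, limma BH-adjusted p = 0.00780 as deposited vs. Saline). Cenpe had log2 fold change 0.90, SE 0.16, limma BH-adjusted p = 0.0114 as deposited. The rescaled values of Cenpf and Cenpe were 0.95 and 0.96, both called.

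Mki67 rose on both scales, with log2 fold change 0.90, SE 0.22, limma BH-adjusted p = 0.0253 as deposited and log2 fold change 1.15, SE 0.20, limma BH-adjusted p = 0.0175 after rescaling. Cdk1 (log2 fold change 0.84, SE 0.20, limma BH-adjusted p = 0.0235) and Ccnb1 (log2 fold change 0.73, SE 0.17, limma BH-adjusted p = 0.0226) rose as deposited, and both were also called after rescaling, at 0.93 and 0.79. Top2a missed the threshold on both scales (log2 fold change 0.85, SE 0.30, limma BH-adjusted p = 0.0760 as deposited and 1.05 after rescaling), with Herb libraries spread from 1.64 to 5.68 FPKM. Birc5, an inhibitor of cell death and passenger protein, was measured at 0.435, 0.821 and 0.236 FPKM in Saline, 1.22, 1.17 and 0.615 FPKM in OVA and 1.56, 1.57, 1.49 and 2.39 FPKM in Herb and rose as deposited (log2 fold change 0.88, SE 0.18, limma BH-adjusted p = 0.0155) and after rescaling (0.97), with 0.85 (limma BH-adjusted p = 0.0751) as deposited for its highest row alone.

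Aurka, Aurkb and Plk1, the main mitotic kinases beside Cdk1, had deposited log2 fold changes of 0.57, 0.64 and 0.60, all called. The kinesin genes Kif4, Kif11 and Kif20a had 0.46, 0.56 and 0.56, and the kinetochore genes Ndc80 and Nuf2 had 0.55 and 0.45, all called as well. The same held for Tpx2 at 0.75, Cdca8 at 0.67 and Hmmr at 0.43. Called only after rescaling were Bub1b, Bub1, Cdca3 and Ube2c, at 0.73, 0.35, 0.51 and 0.65. The deposited values had SE 0.10 to 0.17 and limma BH-adjusted p = 0.0139 to 0.0412, and those called after rescaling had SE 0.088 to 0.18 and limma BH-adjusted p = 0.0391 to 0.0462. With its highest row alone Tpx2 was at 0.39 (limma BH-adjusted p = 0.171) as deposited.

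Pcna was lower in Herb than in Saline, with log2 fold change -1.15, SE 0.22, limma BH-adjusted p = 0.0129 as deposited and log2 fold change -0.77, SE 0.18, limma BH-adjusted p = 0.0365 after rescaling. Mcm4 was lower too, with log2 fold change -0.79, SE 0.12, limma BH-adjusted p = 0.00978 as deposited and log2 fold change -0.47, SE 0.11, limma BH-adjusted p = 0.0315 after rescaling. Rrm1 had a deposited log2 fold change -0.43, SE 0.14, limma BH-adjusted p = 0.0612, which was not called, and -0.091 after rescaling. Mcm2, with log2 fold change -0.18, SE 0.19, limma BH-adjusted p = 0.539 as deposited and 0.052 after rescaling, was not called either.

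Foxm1 was called on both scales, with log2 fold change 0.61, SE 0.11, limma BH-adjusted p = 0.0115 as deposited and log2 fold change 0.71, SE 0.10, limma BH-adjusted p = 0.0136 after rescaling. Melk was called as deposited (log2 fold change 0.49, SE 0.14, limma BH-adjusted p = 0.0449) but not after rescaling (log2 fold change 0.49, SE 0.17, limma BH-adjusted p = 0.0898). E2f1 was called on neither (log2 fold change 0.15, SE 0.13, limma BH-adjusted p = 0.459 as deposited and 0.30 after rescaling).

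Single libraries weighed on these counts too. As deposited, the number called higher was 9 without Saline 1, 5 without Saline 2, 8 without Saline 3, 13 without Herb 1 and 10 without Herb 4, and 1 gene was lower without Saline 2. After rescaling it was 6 without Saline 1, 2 without Saline 2, 4 without Saline 3, 8 without Herb 1, 5 without Herb 3 and 7 without Herb 4. The rescaled calls of Pcna and Mcm4 as lower fell to 0 without Saline 1, 2 or 3 or without Herb 1, 3 or 4, and to 1 without Herb 2.

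Other genes of the cell cycle, from lists that do not overlap the 44, were counted the same way. The shares of all genes called in OVA vs. Saline, 3.48% higher and 45.1% lower as deposited and 20% and 14.6% after rescaling, and the 30.3% higher in Herb vs. OVA as deposited are the background of each count. Of 45 other replication genes, 5 (11.1%) were called higher and 19 (42.2%) lower in OVA vs. Saline as deposited, and 16 (35.6%) and 3 (6.67%) after rescaling. The share lower as deposited was close to the background. The most changed were Orc4, a subunit of the complex that marks origins (log2 fold change -1.64, SE 0.16, limma BH-adjusted p = 0.000209 as deposited), and Rpa3, which coats single-stranded DNA (-1.41 as deposited). Both were also lower after rescaling, at -0.78 and -0.63. Pold1, the catalytic subunit of a replicative polymerase, and the ligase gene Lig1 rose after rescaling, at 1.23 and 1.08. In Herb vs. OVA 12 (26.7%) were higher and 0 lower as deposited, again close to the background, and 0 were called in either direction after rescaling. In Herb vs. Saline, against 3.12% higher and 15.2% lower of all genes as deposited and 5.54% and 4.12% after rescaling, 2 (4.44%) were higher and 4 (8.89%) lower, then 7 (15.6%) and 0.

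Of 66 other mitosis genes in the table, 24 (36.4%) were higher and 4 (6.06%) lower in OVA vs. Saline as deposited (3.48% and 45.1% of all genes), and 45 (68.2%) and 1 (1.52%) after rescaling (20% and 14.6%). Spag5, a spindle pole gene, was measured at 0.139, 0.255 and 0.103 FPKM in Saline, 0.865, 1.22 and 2.16 FPKM in OVA and 1.11, 0.679, 1.77 and 1.97 FPKM in Herb and rose (log2 fold change 1.02, SE 0.25, limma BH-adjusted p = 0.00771 as deposited and 1.43 after rescaling). Cit, a kinase of cytokinesis, was measured at 0.427, 0.433 and 0.522 FPKM in Saline, 1.56, 1.85 and 2.38 FPKM in OVA and 1.54, 1.18, 1.38 and 2.04 FPKM in Herb and rose too (log2 fold change 0.99, SE 0.15, limma BH-adjusted p = 0.000674 as deposited and 1.54 after rescaling). Bub3, a checkpoint protein that also works outside mitosis, went the other way (log2 fold change -1.71, SE 0.26, limma BH-adjusted p = 0.000613 as deposited and log2 fold change -0.86, SE 0.29, limma BH-adjusted p = 0.0491 after rescaling). In Herb vs. OVA 13 (19.7%) were higher, below the 30.3% of all genes, and 0 lower as deposited, with Cks1b at 1.01, and 0 were called after rescaling. In Herb vs. Saline 28 (42.4%) were higher and 0 lower as deposited, and 32 (48.5%) and 0 after rescaling, against 3.12% and 5.54% of all genes higher.

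Of 10 G1 cyclins and kinases, which prepare the cell for replication, 0 were higher and 5 (50%) lower in OVA vs. Saline as deposited, near the 45.1% of all genes, and 3 (30%) were higher and 1 (10%) lower after rescaling, against 20% and 14.6%. Ccnd2, a D-type cyclin, was measured at 16.9, 12.7 and 16.1 FPKM in Saline, 2.27, 1.73 and 3.08 FPKM in OVA and 14.8, 14.5, 8.41 and 7.19 FPKM in Herb. It fell in OVA on both scales, at -2.28 and -1.41, and it rose in Herb vs. OVA as deposited (log2 fold change 1.82, SE 0.26, limma BH-adjusted p = 0.00994). A total of 3 (30%) were higher in Herb vs. OVA as deposited, close to the 30.3% of all genes, and 0 were called after rescaling. In Herb vs. Saline 0 were called as deposited, against 3.12% of all genes higher and 15.2% lower. After rescaling 2 (20%), Ccnd1 and Skp2, were higher, against 5.54% of all genes.

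Among 19 E2F and DREAM factors, which turn these promoters on and off, 4 (21.1%) were higher and 8 (42.1%) lower in OVA vs. Saline as deposited (3.48% and 45.1% of all genes), and 7 (36.8%) and 2 (10.5%) after rescaling (20% and 14.6%). Mybl2, an activator of mitosis genes, rose on both scales, at 0.62 and 0.99. Lin54, the subunit of the DREAM complex that binds the CHR element, fell on both, at -1.09 and -0.41. Lin52, another subunit, was measured at 0.387, 0.443 and 0.987 FPKM in Saline, 1.57, 2.001 and 1.37 FPKM in OVA and 0.429, 0.738, 0.109 and 0.214 FPKM in Herb. It was lower in Herb than in OVA on both scales (log2 fold change -0.96, SE 0.19, limma BH-adjusted p = 0.0103 as deposited), and it was the only gene of these 5 lists called in Herb vs. OVA after rescaling (-1.39). In Herb vs. OVA 10 (52.6%) were higher (30.3% of all genes) and 1 (5.26%) lower (0.392%) as deposited. In Herb vs. Saline 3 (15.8%) were higher and 2 (10.5%) lower as deposited, against 3.12% and 15.2% of all genes. After rescaling the counts were 2 (10.5%) and 0, against 5.54% and 4.12%.

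Of 15 inhibitors of cell cycle kinases and antiproliferative genes tested, 0 were higher and 13 (86.7%) lower in OVA vs. Saline as deposited, against 45.1% of all genes lower, and 0 and 8 (53.3%) after rescaling, against 14.6%. Cdkn1b, which blocks cyclin-dependent kinases, was measured at 10.5, 14.1 and 10.1 FPKM in Saline, 1.44, 1.962 and 1.48 FPKM in OVA and 4.94, 6.61, 2.44 and 2.70 FPKM in Herb. It fell on both scales (log2 fold change -2.25, SE 0.29, limma BH-adjusted p = 0.000336 as deposited and -1.43 after rescaling). Btg3, a gene that restrains proliferation, had -2.23 and -1.43, both called. In Herb vs. OVA 9 (60.0%) were higher (30.3% of all genes) and 0 lower as deposited, with Ccng1 at 1.49, and 0 were called after rescaling. In Herb vs. Saline 0 were higher and 3 (20%) lower on both scales, against 15.2% and 4.12% of all genes lower, with Btg3, Cdkn2b and Cdkn1b at -1.12, -0.99 and -0.98 after rescaling.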

How the data were processed

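RNA-seq libraries of mouse lung (Saline, n = 3; OVA, n = 3; Herb, n = 4) were grouped by their labels. The authors trimmed reads with cutadapt 1.10, aligned them to mm10 with Hisat2, assembled transcripts with StringTie 1.3.3b, and deposited FPKM per transcript from ballgown. The authors ran edgeR on counts for their own comparisons (3.16.5 in the submitters' processing notes, while the methods of the study name another version). FPKM are not counts, so limma 3.58.1 in R 4.3.3 (lmFit and eBayes with an intensity trend) was fitted on log2(FPKM + 1) of gene sums, over 16075 symbols with a mean of at least 0.1 FPKM, for all 10 libraries with 3 group means, with Benjamini-Hochberg (BH) adjustment. Depth was estimated from the smallest FPKM steps. FPKM share out the fragments of a library, so a rise of other RNA lowers all genes; the same fit was therefore run on values rescaled to a common 75th percentile. Gene positions are those of GRCm38.p6, the assembly of mm10. Promoter sequences are from RefSeq (GRCm38.p6). The procedure was tested on simulated data, with changes larger than those of the 44 genes and only in genes more abundant than most of them. That test therefore does not cover small changes of low genes or a shift in the share of other RNA. The alternatives were other scalings, pseudocounts, filters, call rules and replicate blocks, and each library left out. Fold changes are given for the called genes, with the errors of genes listed together as a range, and for Mki67, Top2a, Pcna, Mcm2, Ccnb1, Cdk1, E2f1, Foxm1 and Melk, and in the other lists for the 3 most changed of those called in each direction at most. The 44 genes and the lists were chosen with earlier results of these data known. Python 3.11.15 with pandas 2.3.3, numpy 2.4.6 and matplotlib 3.10.9 was used for the other steps.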

Additional observations from a re-analysis of the deposited data

Results flagged for a closer look

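In 2 of the 44 genes 1 Herb library stood apart from the other 3, by a gap that took up more of the group's range than Dixon's limit allows. Birc5, which blocks cell death and belongs to the chromosomal passenger complex, was at 2.39 FPKM in Herb 4 and between 1.49 and 1.57 FPKM in the other Herb libraries. Prc1, which bundles spindle microtubules, was at 2.09 FPKM in Herb 3 and between 2.59 and 2.67 FPKM in the others. Chance gives such a gap in about 1 of 20 groups, and 44 were examined. All 4 Herb libraries were above all Saline libraries for both genes.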

How the results depend on the processing

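Libraries were rescaled to a common 75th percentile, to a common total of gene sums, to a common messenger RNA fragment share or by quantile normalization, and the third of these, the alternatives to the ratio and the pseudocount and left-out libraries on the rescaled values were chosen after seeing the data. A fold change screen counted genes with a log2 fold change beyond 1 in size and an unadjusted p under 0.05. It took its limits from the study, which applied them to edgeR fold changes of counts, whereas here they were applied to the limma values of FPKM + 1, which are smaller for low genes. The cause of each change was not tested. A minimum mean of 1 FPKM left only 24 of the 44 genes in the fit. Counts with that minimum are therefore out of 24 genes and cannot be set directly against counts out of 44. In OVA vs. Saline the number called higher (10 as deposited) was 29 with the 75th percentile, 23 with the total, 33 with the messenger RNA share, 20 with quantile normalization, 5 with a minimum mean of 1 FPKM and the replicate block, 24 with the replicate block and the 75th percentile together and 0 with the fold change screen. The number called lower (4 as deposited) was 2 with the 75th percentile, the total, the messenger RNA share, quantile normalization and the replicate block and the 75th percentile together. The replication median was 0.34 with the 75th percentile and the replicate block and the 75th percentile together, 0.29 with the total and 0.45 with the messenger RNA share. The mitosis median was 0.72 with the 75th percentile and the replicate block and the 75th percentile together, 0.66 with the total, 0.83 with the messenger RNA share, 0.58 with quantile normalization and 0.75 with a pseudocount of 0.1. In Herb vs. OVA the number called higher (9 as deposited) was 0 with the 75th percentile, the total, the messenger RNA share, quantile normalization, the replicate block and the 75th percentile together and the fold change screen, 4 with only the 2 groups compared in the fit and 2 with the replicate block. The replication median was -0.0433 with the 75th percentile, -0.11 with the messenger RNA share, 0.57 with a pseudocount of 0.1 and -0.15 with the replicate block and the 75th percentile together. The mitosis median was 0.0207 with the 75th percentile, 0.12 with the total, -0.0237 with the messenger RNA share, 0.0238 with quantile normalization, 0.62 with a pseudocount of 0.1 and -0.0475 with the replicate block and the 75th percentile together. In Herb vs. Saline the number called higher (21 as deposited) was 8 with quantile normalization, 9 with a minimum mean of 1 FPKM, 5 with the replicate block, 3 with the replicate block and the 75th percentile together and 0 with the fold change screen. The number called lower (2 as deposited) was 0 with the total, the messenger RNA share and the replicate block and the 75th percentile together and 1 with quantile normalization and the fold change screen. The mitosis median was 1.18 with a pseudocount of 0.1 and 0.80 with a minimum mean of 1 FPKM. With each library left out in turn in OVA vs. Saline, the number called higher as deposited ran from 2 to 17 and the number called higher on the rescaled values ran from 17 to 34. With each library left out in turn in Herb vs. OVA, the number called higher as deposited ran from 2 to 10. With each library left out in turn in Herb vs. Saline, the number called higher as deposited ran from 5 to 23, the number called lower as deposited ran from 1 to 3, the number called higher on the rescaled values ran from 2 to 25 and the number called lower on the rescaled values ran from 0 to 2. On the rescaled values the replicate block left 3 called higher and 0 lower in Herb vs. Saline. Same-numbered libraries deviated with correlations from -0.0139 to 0.102 as deposited and from -0.00527 to 0.0864 after rescaling over 9 pairs, so the numbers were not taken to pair the libraries, and Herb 4 has no partner and so does not enter the blocked contrasts. The mean ratio of mitosis to replication genes was 0.640 in Saline, 1.01 in OVA and 1.30 in Herb without Pcna, Mcm4 and Rrm1, and 0.447 in Saline, 1.65 in OVA and 1.62 in Herb with summed FPKM. The summed FPKM included Mcm7 with its values of 0, so the order of OVA and Herb in it is not firm. The log2 fold changes that changed sign in OVA vs. Saline were those of Mcm2, at 0.43 with the 75th percentile and the replicate block and the 75th percentile together, 0.36 with the total, 0.58 with the messenger RNA share, 0.26 with quantile normalization and -0.30 to 0.0284 with 1 library left out. Mcm5 was at -0.0197 with a pseudocount of 0.1 and -0.13 to 0.20 with 1 library left out. Cdt1 was at -0.11 to 0.25 with 1 library left out. Bub1 was at -0.0447 to 0.12 with 1 library left out. Nusap1 was at 0.0157 with the messenger RNA share. E2f1 was at 0.47 with the 75th percentile and the replicate block and the 75th percentile together, 0.40 with the total, 0.58 with the messenger RNA share, 0.29 with quantile normalization, 0.0800 with the highest row of a gene and -0.0663 to 0.12 with 1 library left out. The log2 fold changes that changed sign in Herb vs. OVA were those of Mcm2, at 0.0203 with a pseudocount of 0.1 and -0.21 to 0.12 with 1 library left out. Mki67 was at -0.00628 with the messenger RNA share and -0.0420 with the replicate block and the 75th percentile together. Top2a was at -0.25 with the 75th percentile and quantile normalization, -0.0598 with the total, -0.33 with the messenger RNA share and -0.46 with the replicate block and the 75th percentile together. Cdk1 was at -0.0226 with the replicate block and the 75th percentile together. Kif23 was at -0.11 with the 75th percentile and the replicate block and the 75th percentile together, -0.18 with the messenger RNA share and -0.0900 with quantile normalization. E2f1 was at -0.16 with the 75th percentile, -0.0386 with the total, -0.21 with the messenger RNA share, -0.14 with quantile normalization and -0.18 with the replicate block and the 75th percentile together. Foxm1 was at -0.14 with the 75th percentile, -0.00404 with the total, -0.20 with the messenger RNA share, -0.12 with quantile normalization and -0.18 with the replicate block and the 75th percentile together. Melk was at -0.16 with the 75th percentile and quantile normalization, -0.0807 with the total, -0.20 with the messenger RNA share, -0.0457 with the replicate block, -0.25 with the replicate block and the 75th percentile together and -0.0810 to 0.20 with 1 library left out. The log2 fold changes that changed sign in Herb vs. Saline were those of Mcm2, at 0.0517 with the 75th percentile, 0.12 with the total and 0.13 with the messenger RNA share.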
